A study of Homo sapiens with 11 samples.

Results

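The mRNA levels of 9 enzymes of serine synthesis and one-carbon metabolism were followed through 11 libraries of H1299, a line from a human lung carcinoma. The enzymes were taken by gene symbol, each matched a single row, and they are 9 of the 45965 genes in the deposited table. The cytosolic members were PHGDH, PSAT1, PSPH, SHMT1 and MTHFD1, and the mitochondrial members were SHMT2, MTHFD1L, MTHFD2 and ALDH1L2. Cells of all 4 groups had been stably transfected with a construct (5 µg of DNA, then neomycin at 800 µg per ml for 14 days), carrying 1 of 2 hotspot mutations, R273H or R175H, on 1 of 2 common codon 72 forms, arginine (R72) or proline (P72). There was 1 R273H R72 library, with 4 of R273H P72, 3 of R175H R72 and 3 of R175H P72. No group without mutant p53 was used here, so every comparison is between groups with mutant p53 and none is with cells lacking it. The labels give 2 batches: b1, with R273H P72 replicates 2 to 4 and the first replicate of R175H R72, and b2, with the other 7 libraries. Nothing says whether replicates were separate cultures or clones, so p-values reflect only how far libraries differ, which may be technical.

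PHGDH, PSAT1 and PSPH turn the glycolytic intermediate 3-phosphoglycerate into serine in 3 successive steps. Serine hydroxymethyltransferase, SHMT1 in the cytosol and SHMT2 in mitochondria, then moves the side-chain carbon of serine to tetrahydrofolate and releases glycine. In mitochondria MTHFD2 oxidises that carbon unit and MTHFD1L releases it as formate, which the cytosolic trifunctional enzyme MTHFD1 takes up again for purine and thymidylate synthesis. ALDH1L2 oxidises mitochondrial formyl-tetrahydrofolate to carbon dioxide with formation of NADPH. Many genes of the pathway are known targets of ATF4, the transcription factor of the integrated stress response, and the mitochondrial enzymes are often high in proliferating tumour cells.

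RefSeq promoter windows (GRCh38.p14) were at hand for 6 of the 9 enzymes, namely PHGDH, PSAT1, SHMT1, MTHFD1, MTHFD1L and MTHFD2. The 250 bases upstream of the start are shown for the enzymes whose levels the results turn on: PHGDH (chr1:119711684-119711933) and MTHFD2 (chr2:74198365-74198614), which were lower with R273H, MTHFD1L (chr6:150866236-150866485, the first of 4 listed windows), and PSAT1 (chr9:78296875-78297124) and MTHFD1 (chr14:64388103-64388352), which were not called. All 5 are on the plus strand and are written 5′ to 3′, with capitals marking matches to CCAAT (the box bound by NF-Y), CACGTG (the E-box bound by MYC) and TGATGNAA (the element bound by C/EBP and ATF dimers) on either strand.

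PHGDH: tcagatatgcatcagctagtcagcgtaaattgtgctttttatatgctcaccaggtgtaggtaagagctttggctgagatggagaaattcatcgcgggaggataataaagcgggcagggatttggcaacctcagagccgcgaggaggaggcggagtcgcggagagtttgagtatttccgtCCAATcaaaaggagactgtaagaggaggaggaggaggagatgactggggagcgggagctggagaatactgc

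MTHFD2: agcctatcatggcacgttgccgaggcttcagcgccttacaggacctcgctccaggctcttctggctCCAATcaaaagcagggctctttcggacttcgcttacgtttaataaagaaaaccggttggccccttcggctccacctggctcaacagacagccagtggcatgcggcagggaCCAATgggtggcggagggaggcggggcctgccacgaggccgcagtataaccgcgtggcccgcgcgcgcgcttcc

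MTHFD1L: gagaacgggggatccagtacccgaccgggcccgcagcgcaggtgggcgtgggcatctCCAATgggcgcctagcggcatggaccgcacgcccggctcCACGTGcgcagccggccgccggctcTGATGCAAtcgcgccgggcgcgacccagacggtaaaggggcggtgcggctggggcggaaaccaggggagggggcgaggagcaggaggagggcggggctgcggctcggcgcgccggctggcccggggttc

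PSAT1: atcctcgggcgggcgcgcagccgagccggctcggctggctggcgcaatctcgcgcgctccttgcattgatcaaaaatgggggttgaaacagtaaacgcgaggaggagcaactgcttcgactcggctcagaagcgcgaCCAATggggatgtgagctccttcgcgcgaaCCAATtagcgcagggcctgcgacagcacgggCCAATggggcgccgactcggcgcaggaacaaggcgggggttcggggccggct

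MTHFD1: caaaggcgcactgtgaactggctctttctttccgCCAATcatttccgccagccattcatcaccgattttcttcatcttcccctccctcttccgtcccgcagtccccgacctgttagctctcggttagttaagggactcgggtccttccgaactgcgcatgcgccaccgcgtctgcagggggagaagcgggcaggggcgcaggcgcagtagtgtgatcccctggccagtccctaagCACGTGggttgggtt

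A CCAAT box stood in at least 1 window of all 6 enzymes, against 32.0% of the 35116 RefSeq windows of this length and 37.0% of 27305 genes. PSAT1 had 3 CCAAT matches, MTHFD2 and SHMT1 had 2 each, and PHGDH and MTHFD1 had 1 each, so the called and the uncalled enzymes both carried them. CACGTG was found in 6.34% of windows and 7.73% of genes. It stood in MTHFD1, 15 to 10 bases before the start, and in MTHFD1L, 154 to 149 bases before it. TGATGNAA was found in 3.14% of windows and 3.89% of genes. It was matched in MTHFD1L alone among the 6 enzymes, as TGATGCAA at 129 to 122 bases before the start. These are matches of letters and do not show binding.

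The libraries held 8346926 to 12829560 counts, and all 9 enzymes were among the 16324 genes that passed the filter on low counts. ALDH1L2 had 80 to 186 counts per library, SHMT1 198 to 476 and MTHFD2 2822 to 6153. Levels are given as CPM (counts scaled to library size and TMM factor), and they are compared between groups and not between enzymes. The epithelial keratin KRT8 was at 241 to 300 CPM and KRT18 at 656 to 1043 CPM in every library. VIM, a mesenchymal intermediate filament, was at 755 to 1827 CPM, while the epithelial adhesion gene EPCAM did not exceed 0.709 CPM. The summed markers of other cells stayed low: 1.79 to 6.57 CPM over 6 fibroblast genes, 0.504 to 1.48 CPM over 4 endothelial genes, 0.475 to 2.33 CPM over 4 lung lineage genes, and 8.63 to 16.9 CPM over 5 leukocyte genes, most of it from the macrophage and lysosomal gene CD68. The summed 4 line markers (KRT8, KRT18, VIM and EPCAM) were at 2012 to 2150.3 CPM in R273H P72 and at 2542 to 2985 CPM in R175H P72, and the fibroblast genes at 3.11 to 6.57 CPM in R273H P72 and at 1.79 to 2.75 CPM in R175H P72. Neither pair of ranges overlapped. Of the 6 fibroblast genes COL1A2 and LUM were at 0 in every library. COL3A1, DCN and PDGFRB did not exceed 0.101, 0.355 and 0.544 CPM. Most of the fibroblast sum thus came from COL1A1, at 1.70 to 6.10 CPM. The part of these markers in the differences between these groups was not tested. Fewer cells of a kind and less RNA per cell cannot be told apart in such bulk samples.

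The hotspot comparison on P72 asks how R273H cells differ from R175H cells when both carry proline at codon 72. PHGDH, SHMT2, MTHFD2 and ALDH1L2 were lower with R273H, by 1.57-fold, 1.90-fold, 1.30-fold and 1.76-fold. No enzyme was called higher, by edgeR or under any alternative, against 6.95% of all genes. A gene was called when its adjusted p from edgeR's quasi-likelihood test, in a model of the 4 groups and batch, was under 0.05, and 7.6% of all genes tested were called lower in this comparison (14.6% in either direction). Of the 4 mitochondrial enzymes 3 were called lower, and of the 5 cytosolic enzymes 1. The median log2 fold change was -0.60 over the mitochondrial enzymes, -0.05 over the cytosolic enzymes and 0.00 over all genes (0.00303 before rounding).

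**Figure D1:**
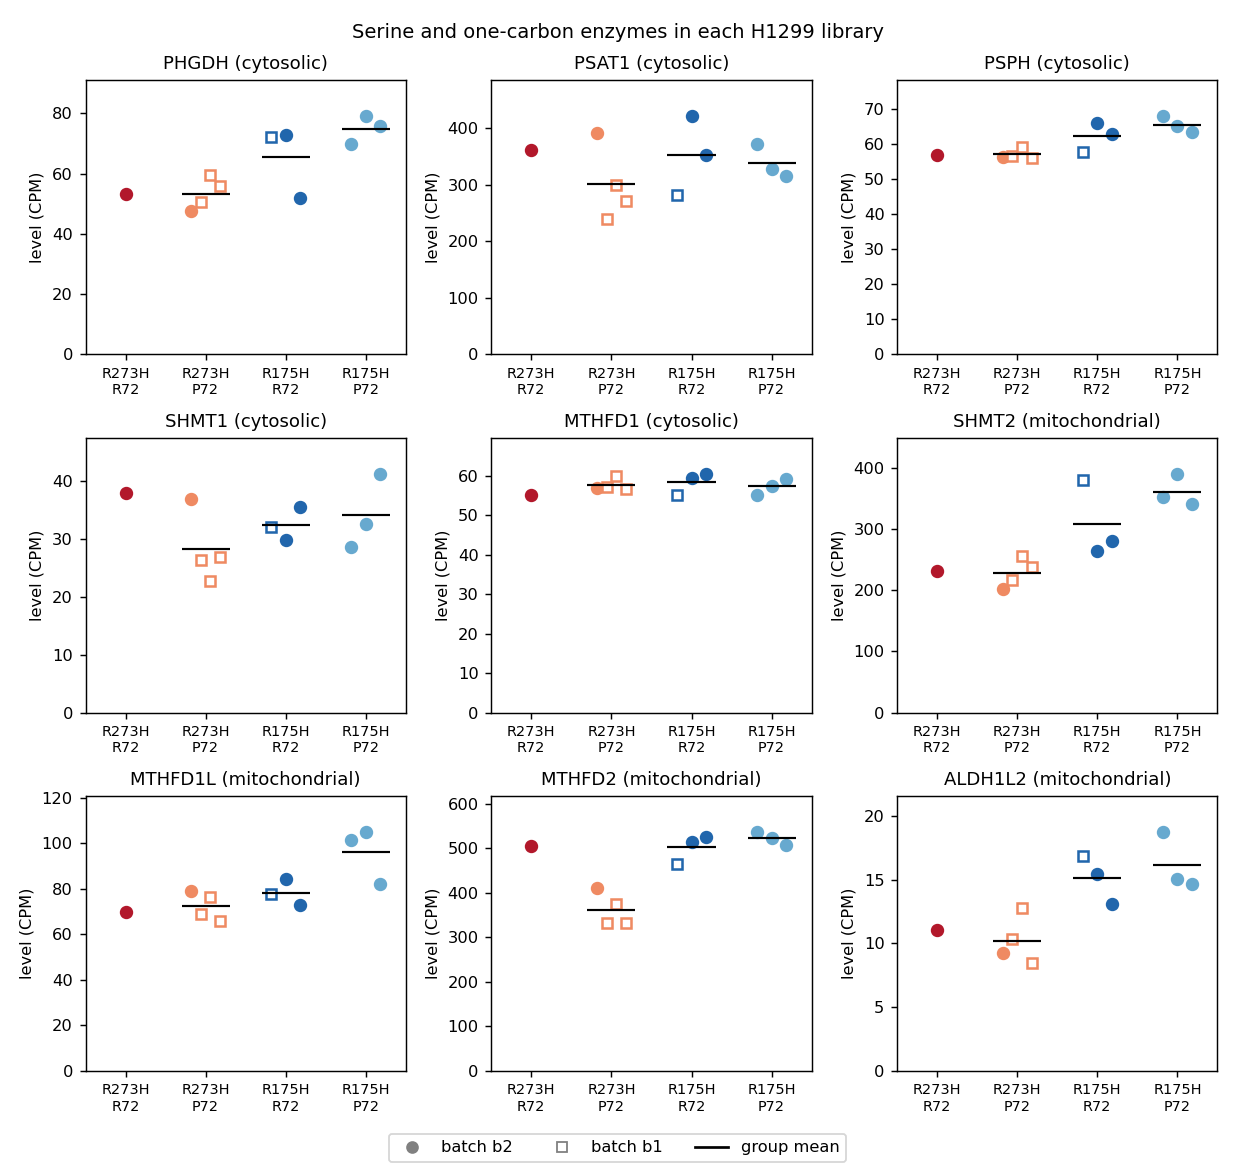
Level of each enzyme in each library, in CPM on an axis starting at 0, for the 4 groups; filled circles are batch b2, open squares batch b1 and bars group means. SHMT2, PHGDH, MTHFD2 and ALDH1L2 are lower in all 4 R273H P72 libraries than in all 3 R175H P72 libraries, while MTHFD1 spans only 55.1 to 60.5 CPM over all 11.

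Among the enzymes of serine synthesis, PHGDH, which catalyses the first step, was at 47.5, 50.4, 59.5 and 56.0 CPM in R273H P72 replicates 1 to 4. It was at 69.6, 79.2 and 75.6 CPM in R175H P72 replicates 1, 2 and 4. The groups did not overlap. The log2 fold change was -0.65 (SE 0.13, adjusted p 0.00169 by edgeR). PSAT1, the aminotransferase of the second step, was at 391, 239, 300.0 and 271 CPM in R273H P72, against 372, 327 and 316 CPM in R175H P72. Here the groups overlapped, because the b2 library of R273H P72 was above and its b1 libraries were below every R175H P72 library. Its fitted log2 fold change was 0.19 (SE 0.11, adjusted p 0.298), and it was -0.17 in a model with no batch term, so its sign depends on the batch term. PSPH, the phosphatase of the last step, was at 56.1 to 59.3 CPM in R273H P72 and at 63.3 to 68.1 CPM in R175H P72. These ranges were also apart, but with the batch term the log2 fold change was -0.15 (SE 0.10, adjusted p 0.353) and PSPH was not called.

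SHMT2, which carries serine carbon into mitochondrial folate, was at 203, 217, 257 and 239 CPM in R273H P72 and at 353, 391 and 342 CPM in R175H P72. All 4 R273H P72 libraries were below all 3 R175H P72 libraries, and its log2 fold change of -0.92 (SE 0.11, adjusted p 1.83e-05 by edgeR) was the largest of the 9. SHMT1, its cytosolic counterpart, was at 37.0, 26.4, 22.8 and 26.8 CPM in R273H P72, against 28.7, 32.5 and 41.3 CPM in R175H P72. The groups overlapped, the b2 library of R273H P72 being the highest of its group, and the log2 fold change was -0.05 (SE 0.16, adjusted p 0.877). In batch b2 alone it was 0.11.

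MTHFD2, the mitochondrial dehydrogenase and cyclohydrolase, was at 410, 331, 374 and 331 CPM in R273H P72, against 537, 524 and 508 CPM in R175H P72. The groups were apart and the log2 fold change was -0.38 (SE 0.09, adjusted p 0.00821 by edgeR). MTHFD1L, the mitochondrial formate-releasing synthetase, was at 79.0, 68.7, 76.1 and 66.0 CPM in R273H P72 and at 101, 105 and 82.0 CPM in R175H P72. All values were lower in R273H P72, but the log2 fold change of -0.33 (SE 0.12) missed the threshold with an adjusted p of 0.0617. Without R175H P72 replicate 4, the lowest of its group, it was -0.44 with an adjusted p of 0.0117, the only 1 of 11 fits with a library left out in which it was called. It was -0.27 without R175H P72 replicate 2 (adjusted p 0.202) and -0.28 in b2 alone (adjusted p 0.298). It was called with no batch term, at -0.41 (adjusted p 0.0144), and with no filter on low counts, at -0.32 (adjusted p 0.0371).

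ALDH1L2, the mitochondrial formyl-tetrahydrofolate dehydrogenase, was at 9.25, 10.3, 12.8 and 8.46 CPM in R273H P72 and at 18.7, 15.1 and 14.6 CPM in R175H P72. The groups did not overlap, and the log2 fold change was -0.82 (SE 0.19, adjusted p 0.00552 by edgeR). MTHFD1, the cytosolic trifunctional enzyme, was at 56.7 to 59.9 CPM in R273H P72 and at 55.2 to 59.2 CPM in R175H P72. Its log2 fold change was 0.04 (SE 0.10, adjusted p 0.85), and its range over all 11 libraries, 0.14 log2 units, was the narrowest of the 9 enzymes. In all, 6 of the 9 enzymes (PHGDH, PSPH and the 4 mitochondrial ones) had R273H P72 values entirely below the R175H P72 values, against 14.1% of all genes tested.

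**Figure D2:**
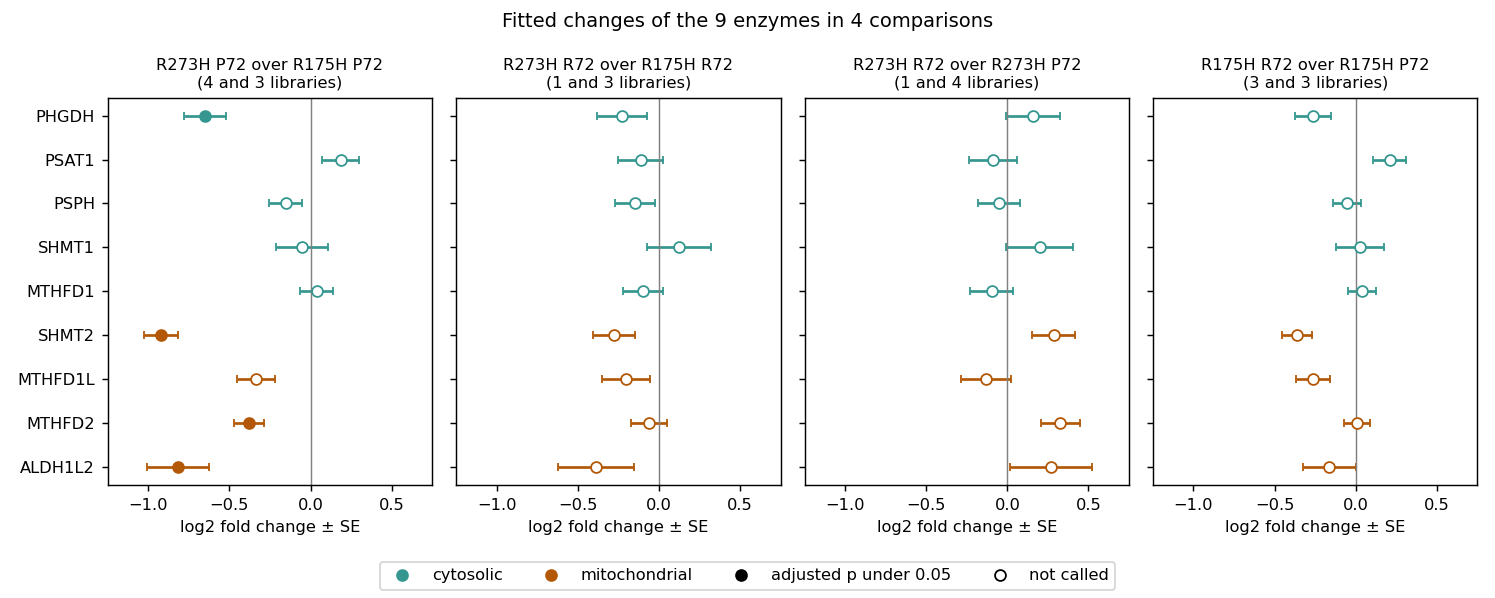
Fitted log2 fold change of each enzyme with its standard error in the 4 pairwise comparisons, cytosolic enzymes in green and mitochondrial ones in brown; filled points have an adjusted p under 0.05. The only filled points are PHGDH, SHMT2, MTHFD2 and ALDH1L2 in R273H P72 over R175H P72.

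Batch limits this comparison, since 3 of the 4 R273H P72 libraries were in b1 and all R175H P72 libraries in b2. Within b2 the single R273H P72 library was below all 3 R175H P72 libraries for each of the 4 called enzymes, and a fit of b2 alone gave -0.66 for PHGDH (adjusted p 0.0321), -0.84 for SHMT2 (0.00264), -0.80 for ALDH1L2 (0.0446) and -0.35 for MTHFD2 (0.0908, not called). Leaving out that library, R273H P72 replicate 1, left only SHMT2 called, at -1.08, with -0.64 for PHGDH (adjusted p 0.0524), -0.85 for ALDH1L2 (0.078) and -0.43 for MTHFD2 (0.0607). MTHFD2 was also not called without R175H R72 replicate 1, at -0.35 (adjusted p 0.0573). The libraries also differed in how counts depended on the GC content of a gene's 3′ end. The slope was 0.014, 0.043 and 0.030 log2 units per 10% of GC in R175H P72, all in b2. In the other b2 libraries it was -0.071 (R273H P72 replicate 1), -0.091 and -0.061 (R175H R72 replicates 2 and 4) and -0.093 (R273H R72). Within b2 this trend and the R175H P72 group therefore cannot be told apart. In b1 the slope was 0.041, 0.056 and 0.044 (R273H P72 replicates 2 to 4) and 0.089 (R175H R72 replicate 1). The R175H P72 libraries, though labelled b2, thus had the sign of the b1 libraries and not that of the other b2 libraries. What this does to the batch term and to the fit of b2 alone was not tested. The GC content was 56.1% for PHGDH, 56.0% for SHMT2, 40.2% for MTHFD2 and 38.8% for ALDH1L2. With a correction for the GC trend all 4 of these enzymes stayed called, at -0.52, -0.80, -0.44 and -0.89, and MTHFD1L was called too, at -0.36.

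**Figure D3:**
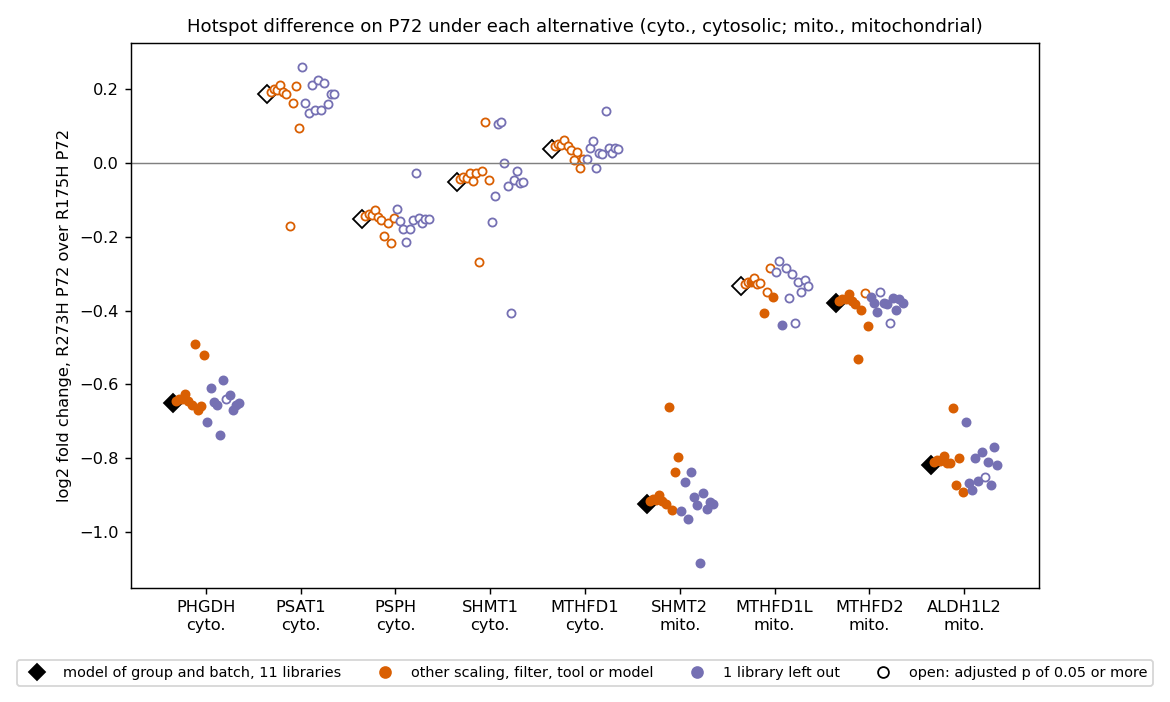
Log2 fold change of each enzyme for R273H P72 over R175H P72 in the model of group and batch (diamonds) and under each alternative (orange, another scaling, filter, tool or model; purple, 1 library left out); open symbols have an adjusted p of 0.05 or more. SHMT2 is filled throughout, between -1.08 and -0.66, and SHMT1, PSAT1 and MTHFD1 lie on both sides of 0.

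The enzymes of the same step in the 2 compartments were set against each other within each library, as a log2 ratio of counts, whose change between groups does not depend on library scaling. The ratio of MTHFD2 to MTHFD1 was 2.64 ± 0.15 in R273H P72 (SD, n = 4) and 3.19 ± 0.09 in R175H P72 (SD, n = 3). The 4 R273H P72 libraries, at 2.53 to 2.85, were all below the 3 R175H P72 libraries, at 3.10 to 3.28, and the means differed by -0.55. The R273H R72 library was at 3.19 and the R175H R72 libraries at 3.10 ± 0.02 (SD, n = 3), so the low ratio was found in R273H P72 alone of the 4 groups, a description without a test.

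The ratio of MTHFD1L to MTHFD1 was 0.33 ± 0.11 in R273H P72 (SD, n = 4), against 0.74 ± 0.23 in R175H P72 (SD, n = 3). These values met at 0.475 and 0.470, so the groups overlapped. It was 0.34 in the R273H R72 library and 0.42 ± 0.14 in R175H R72 (SD, n = 3). The ratio of SHMT2 to SHMT1 was 3.03 ± 0.43 in R273H P72 (SD, n = 4) and 3.42 ± 0.32 in R175H P72 (SD, n = 3), a difference of -0.38, smaller than the SD of R273H P72 and larger than that of R175H P72, with overlapping groups. Its lowest values were the b2 libraries of R273H, 2.45 in R273H P72 replicate 1 and 2.61 in R273H R72, while the b1 libraries of R273H P72 were at 3.04 to 3.49. Within b2 the R273H P72 library differed from R175H P72 by -0.96, and the difference was -0.87 with batch as a term. The R175H R72 libraries were at 3.23 ± 0.30 (SD, n = 3), the b1 library being the highest at 3.57.

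**Figure D4:**
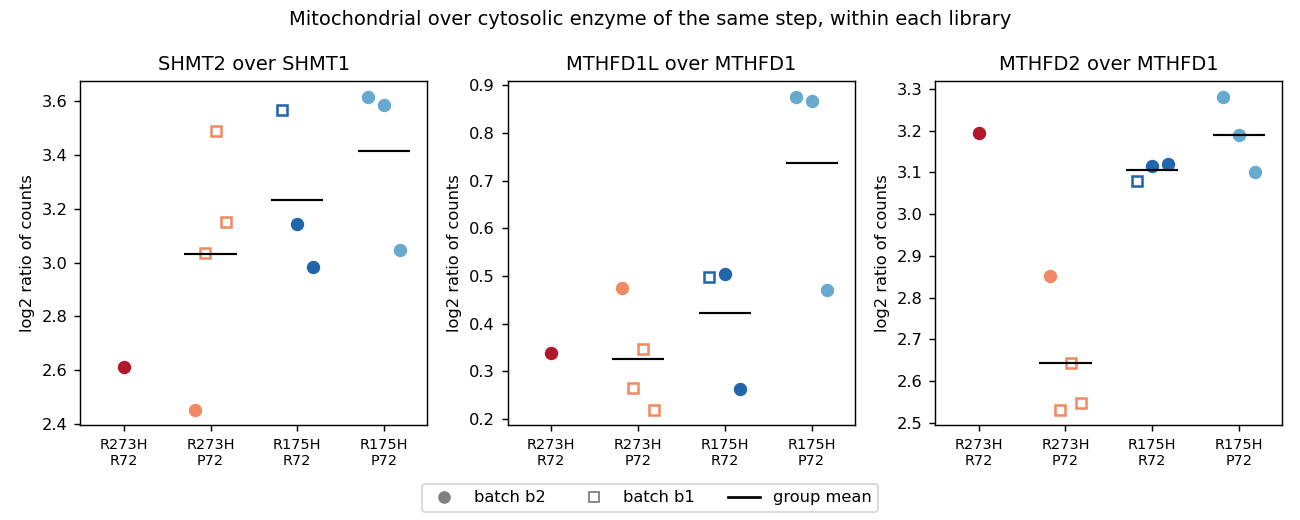
Log2 ratio of counts of the mitochondrial to the cytosolic enzyme in each library, for 3 pairs and the 4 groups; filled circles are batch b2, open squares batch b1 and bars group means, and the axes do not start at 0. For MTHFD2 over MTHFD1 all 4 R273H P72 libraries lie between 2.53 and 2.85, below every other library.

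The codon 72 comparison on R175H asks whether R72 cells differ from P72 cells under the same hotspot mutation. Values of all 9 enzymes overlapped between the groups, whereas 6.15% of all genes were lower and 6.82% higher without overlap. The edgeR test called 0 of the 9, with 1.13% of all genes called; 4 had an unadjusted p under 0.05, against 13.6% of all genes, and DESeq2 and limma-voom each called 1, SHMT2, against 2.04% and 1.18% of all genes. SHMT2 was at 380, 264 and 281 CPM in R175H R72 replicates 1, 2 and 4, against 353, 391 and 342 CPM in R175H P72. Both b2 libraries of R175H R72 were below every R175H P72 library, while the b1 library was inside their range. The log2 fold change was -0.36 (SE 0.09), with an adjusted p of 0.057 by edgeR, 0.0112 by DESeq2 and 0.0437 by limma-voom. It was called by edgeR, at -0.41, -0.41, -0.41 and -0.38, on leaving out R175H P72 replicate 4, R175H R72 replicate 1, R273H P72 replicate 1 or R273H P72 replicate 2, and with the GC correction it was -0.28 (adjusted p 0.205). It was not called in the other 7 fits with a library left out, with -0.30 without R175H P72 replicate 2 (adjusted p 0.286) and -0.31 without R175H R72 replicate 2 (adjusted p 0.39). With no batch term it was -0.23 (adjusted p 0.694).

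The other 3 with an unadjusted p under 0.05 were PHGDH, at 72.2, 72.7 and 52.0 CPM in R175H R72 and 69.6, 79.2 and 75.6 CPM in R175H P72, PSAT1 and MTHFD1L. Their log2 fold changes were -0.26 (adjusted p 0.29), 0.21 (0.36) and -0.26 (0.252). For PHGDH 1 R175H R72 library, replicate 4, was below the rest and the other two were within the R175H P72 range. MTHFD1L was at 77.7, 84.4 and 72.6 CPM in R175H R72 and at 101, 105 and 82.0 CPM in R175H P72, and the highest R72 library passed the lowest P72 library. The median log2 fold change was -0.21 over the mitochondrial and 0.03 over the cytosolic enzymes. MTHFD2 was at 465, 515 and 526 CPM in R175H R72 and at 537, 524 and 508 CPM in R175H P72, with a log2 fold change of 0.0087 (adjusted p 0.978).

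With R273H there was 1 R72 library, replicate 3 in b2, which the model assumes to vary like the other groups. Against R273H P72, edgeR called 0 of the 9 enzymes and 0.0% of all genes, 2 enzymes had an unadjusted p under 0.05, against 7.75% of all genes. DESeq2 and limma-voom called 0 each, against 0.686% and 0.0123% of all genes. MTHFD2 was at 504 CPM in the R273H R72 library, above all 4 R273H P72 libraries at 331 to 410 CPM, and its log2 fold change was 0.33 (SE 0.12, adjusted p 0.458). SHMT2 was at 232 CPM in R273H R72, inside the R273H P72 range of 203 to 257 CPM but above the b2 library at 203 CPM. With the batch term its log2 fold change was 0.28 (SE 0.13, adjusted p 0.635). The other 7 enzymes lay between -0.13 (MTHFD1L) and 0.27 (ALDH1L2).

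The hotspot comparison on R72 sets that same library against 3 of R175H R72. No enzyme was called by edgeR, DESeq2 or limma-voom (0 each, with 0.0429%, 0.0858% and 0.0245% of all genes called), and 1 had an unadjusted p under 0.05, against 4.62% of all genes. That was SHMT2, at 232 CPM in R273H R72 and 264 to 380 CPM in R175H R72, with a log2 fold change of -0.28 (SE 0.13, adjusted p 1.0). Of the 4 enzymes called lower on P72, the values here were -0.23 for PHGDH, -0.39 for ALDH1L2 and -0.06 for MTHFD2. PHGDH was at 53.3 CPM in R273H R72, inside the R175H R72 range of 52.0 to 72.7 CPM, and its log2 fold change was -0.04 without R175H R72 replicate 2 and -0.39 without R175H R72 replicate 4. ALDH1L2 was at 11.01 CPM in R273H R72, below the R175H R72 range of 13.1 to 16.9 CPM, as was SHMT2. The 2 hotspot comparisons share no library but use the same batch term, and this one shares its R273H R72 library with the codon 72 comparison on R273H.

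An interaction term tests whether the R72 effect differs between the 2 hotspot mutations. By edgeR 0 of 9 enzymes were called, with 0.0306% of all genes called. The count at an unadjusted p under 0.05 was 1 of 9, near the 10.2% of all genes. DESeq2 called 1, against 0.845% of all genes, and limma-voom 0, against 0.0735%. The enzyme was SHMT2, with a difference of 0.65 log2 units (SE 0.18) and an adjusted p of 0.186 by edgeR and 0.0291 by DESeq2. In a model with no batch term SHMT2 was at 0.25. The next were ALDH1L2 at 0.43 (SE 0.32), PHGDH at 0.42 (SE 0.21, adjusted p 0.513) and MTHFD2 at 0.32 (SE 0.16, adjusted p 0.5). The PHGDH difference was 0.69 without R175H R72 replicate 2 and 0.20 without R175H R72 replicate 4. All 4 mitochondrial enzymes had positive differences, with a median of 0.38, but each rests on the single R273H R72 library.

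The batch term itself was called for 2 of the 9 enzymes, against 9.21% of all genes. PSAT1 was lower in b1 than in b2, with a log2 fold change of -0.50 (SE 0.10, adjusted p 0.00207 by edgeR), and SHMT2 was higher, at 0.35 (SE 0.09, adjusted p 0.0151). SHMT1 was at -0.31, MTHFD2 at -0.21, PHGDH at 0.21 and ALDH1L2 at 0.21, none of them called. What the batches were is not given in the labels.

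ALDH1L2 had the widest range over the 11 libraries, 1.14 log2 units. Ranked among 8967 genes that averaged 10 CPM or more, the 3 whose profiles of log2 CPM, centred on their means, were nearest to it were PYROXD1, WARS and RAB39B, at root mean square distances of 0.135, 0.138 and 0.141 log2 units. WARS, the cytoplasmic tryptophanyl-tRNA synthetase, was at 194 CPM in R273H R72, 173 to 211 CPM in R273H P72, 230.2 to 286 CPM in R175H R72 and 256 to 298 CPM in R175H P72. Like ALDH1L2, it was lower in all 5 R273H libraries than in all 6 R175H libraries, as were PYROXD1 and RAB39B. The 3 genes were picked for their likeness to ALDH1L2 over these same libraries, so the shared separation is not a separate finding.

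On the opposite strand, ALDH1L2 shares 145 exonic bases with C12orf45, SHMT1 shares 196 with SMCR8 and MTHFD1 shares 178 with ZBTB25. The sources used here do not say if reads were counted by strand, so some reads of these pairs could be assigned to the wrong partner. C12orf45, with 1667 counts in all against 1448 for ALDH1L2, had a log2 fold change of -0.02 in the hotspot comparison on P72 (adjusted p 0.958). SMCR8 was at 0.09 (adjusted p 0.742). SHMT2 and MTHFD2 share exonic bases with opposite-strand genes of 143 counts (AC137834.2) and 378 counts (SLC4A5), set against 31519 and 50492 counts of their own.

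Related genes were taken from 7 lists with 72 genes, of which 68 were tested. In the hotspot comparison on P72 edgeR called 9 of them higher and 9 lower, with 14.6% of all genes called. In the other 4 comparisons edgeR called 0 of the 68. There, 3 numbers are given in turn, for genes with an unadjusted p under 0.05, DESeq2 calls and limma-voom calls: 18, 3 and 0 for R72 on R175H, and 6, 1 and 0 for R72 on R273H. They were 9, 0 and 0 for the hotspot comparison on R72, and 9, 1 and 0 for the difference of the R72 effects. At an unadjusted p under 0.05 the shares of all genes were 13.6%, 7.75%, 4.62% and 10.2% in that order, and those called by DESeq2 were 2.04%, 0.686%, 0.0858% and 0.845%. The smallest p in each belonged to SLC7A11 (0.36, adjusted p 0.0619), STC2 (-0.57, 0.35), DDIT4 (-0.36, 1.0) and STC2 again (-0.84, 0.188).

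Among 11 other enzymes of the folate cycle, 3 were called higher with R273H on P72 and 1 lower, against 6.95% and 7.6% of all genes. The median log2 fold change of the 11 was 0.06. ALDH1L1, the cytosolic relative of ALDH1L2, was higher by 0.98 (SE 0.28, adjusted p 0.0262 by edgeR), at 8.68 to 14.3 CPM in R273H P72 and 4.17 to 8.77 CPM in R175H P72, which overlap. GGH, which trims folate polyglutamates, was higher by 0.39, and TYMS, thymidylate synthase, by 0.31 (adjusted p 0.0463). FTCD, an enzyme of histidine breakdown that feeds carbon to folate, was lower, at -0.67. Each of these 4 calls was lost on leaving out at least 1 of the 11 libraries. GGH was at 140.8 to 178 CPM in R273H P72 and at 140.2 to 148 CPM in R175H P72, which overlap. It was at 0.14 with no batch term (adjusted p 0.432), and was also lost in b2 alone (0.31, adjusted p 0.117) and without R175H R72 replicate 1 (0.31). FTCD was lost without R273H P72 replicate 1 (-0.53), in b2 alone (-0.75, adjusted p 0.0697) and with the GC correction (-0.41). ALDH1L1 was lost in b2 alone (1.04, adjusted p 0.0703), and without R175H P72 replicate 2 (0.94) or 4 (0.75), R175H R72 replicate 1 (1.04) or 2 (0.92), or R273H P72 replicate 1 (0.83). TYMS remained only without R175H P72 replicate 4 or R273H R72 replicate 3, and lay between 0.24 and 0.46 over the 11 fits. It was at 0.18 with no batch term (adjusted p 0.243), and was also lost in b2 alone (0.24, adjusted p 0.314) and with the GC correction (0.28, adjusted p 0.0853).

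Of 9 tested carriers of folate and serine, 2 were called higher and none lower, against 6.95% and 7.6% of all genes. SLC19A1, the reduced folate carrier, was at 56.5 to 79.4 CPM in R273H P72 and at 33.2 to 40.4 CPM in R175H P72, a log2 fold change of 0.68 (SE 0.14, adjusted p 0.00307 by edgeR). SLC38A2, a sodium-coupled neutral amino acid carrier, was higher by 0.52 (SE 0.11, adjusted p 0.00243), with groups apart at 1697 to 1938 CPM in R273H P72 and 1180 to 1483 CPM in R175H P72. In the methionine cycle 1 of 10 tested genes was called, against 14.6% of all genes. MAT2A, which makes S-adenosylmethionine, was at 326 to 373 CPM in R273H P72 and at 250.4 to 259 CPM in R175H P72, higher by 0.52 (SE 0.10, adjusted p 0.00117). These 3 calls remained without each library in turn. Of 7 glycine cleavage and glycine-using genes 0 were called by edgeR, DESeq2 or limma-voom, and 1 had an unadjusted p under 0.05. Of 6 purine synthesis genes 0 were called by any of these tools, and 2 had an unadjusted p under 0.05, against 27.8% of all genes in this comparison.

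Of 9 tested regulators, 3 were called lower with R273H on P72, against 7.6% of all genes. These were ATF4 at -0.39 (SE 0.10, adjusted p 0.00987 by edgeR), DDIT3 at -0.42 and CEBPB at -0.37. MYC and the listed eIF2α kinases, EIF2AK1, EIF2AK3 and EIF2AK4, were not called. ATF4 was at 468, 647, 620.2 and 613 CPM in R273H P72, against 633, 653 and 589 CPM in R175H P72. Its values overlapped, and only the b2 library of R273H P72 was below the R175H P72 range. With no batch term ATF4 was at -0.09 (adjusted p 0.654), and without that library, R273H P72 replicate 1, at -0.34 (adjusted p 0.173). In b2 alone none of the 3 was called, with ATF4 at -0.42 (adjusted p 0.0688), DDIT3 at -0.47 (adjusted p 0.066) and CEBPB at -0.39 (adjusted p 0.121). DDIT3 was at 101 to 136 CPM in R273H P72 and at 132 to 144 CPM in R175H P72, which overlap, and with no batch term it was at -0.25 (adjusted p 0.141). CEBPB was at 199 to 235 CPM in R273H P72 and at 278 to 361 CPM in R175H P72, with groups apart. With no batch term CEBPB was called by edgeR, at -0.55 (adjusted p 0.00331). Its call was lost without R175H P72 replicate 4 (-0.24), R175H R72 replicate 1 (-0.39) or R273H P72 replicate 1 (-0.32). The call of DDIT3 was lost without R175H P72 replicate 2 (-0.40), R175H R72 replicate 1 (-0.47) or R273H P72 replicate 1 (-0.32).

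Among 16 ATF4 targets outside the pathway, 5 were called lower and 3 higher with R273H on P72, against 7.6% and 6.95% of all genes. In all, 11 of the 16 had a negative log2 fold change, and the median was -0.16, against 0.00 over all genes. TRIB3, a pseudokinase induced by stress, was at 207, 215, 272 and 205 CPM in R273H P72, against 391, 386 and 363 CPM in R175H P72. It was lower by more than any other gene of the 7 lists that was called, at -0.97 (SE 0.12, adjusted p 7.19e-05 by edgeR). PYCR1, an enzyme of proline synthesis, was at -0.70, the leucine sensor SESN2 at -0.61, the mTORC1 inhibitor DDIT4 at -0.57 and the glutathione-degrading enzyme CHAC1 at -0.35. The 3 that were higher are amino acid carriers and a secreted glycoprotein: SLC7A5 at 0.74, SLC7A11, the cystine carrier, at 0.70, and STC2 at 0.66. Of these 8 calls, 6 remained without each library in turn. PYCR1 was among the 6, but it was not called with no batch term (-0.35, adjusted p 0.175) or in b2 alone (-0.63, adjusted p 0.0621). CHAC1 was lost without R175H P72 replicate 1 (-0.27), R175H R72 replicate 1 (-0.31) or R273H P72 replicate 1 (-0.43), with the GC correction (-0.14), with no batch term (-0.15, adjusted p 0.358) and in b2 alone (-0.31, adjusted p 0.19). SLC7A5 was lost without R175H P72 replicate 4 (0.74, adjusted p 0.0547), R175H R72 replicate 1 (0.65) or R273H P72 replicate 1 (0.92). PPARGC1A, which encodes the mitochondrial regulator PGC-1α, was at 2.64 to 3.35 CPM in R273H P72 and at 3.24 to 3.99 CPM in R175H P72 (-0.38, SE 0.31, adjusted p 0.459).

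**Figure D5:**
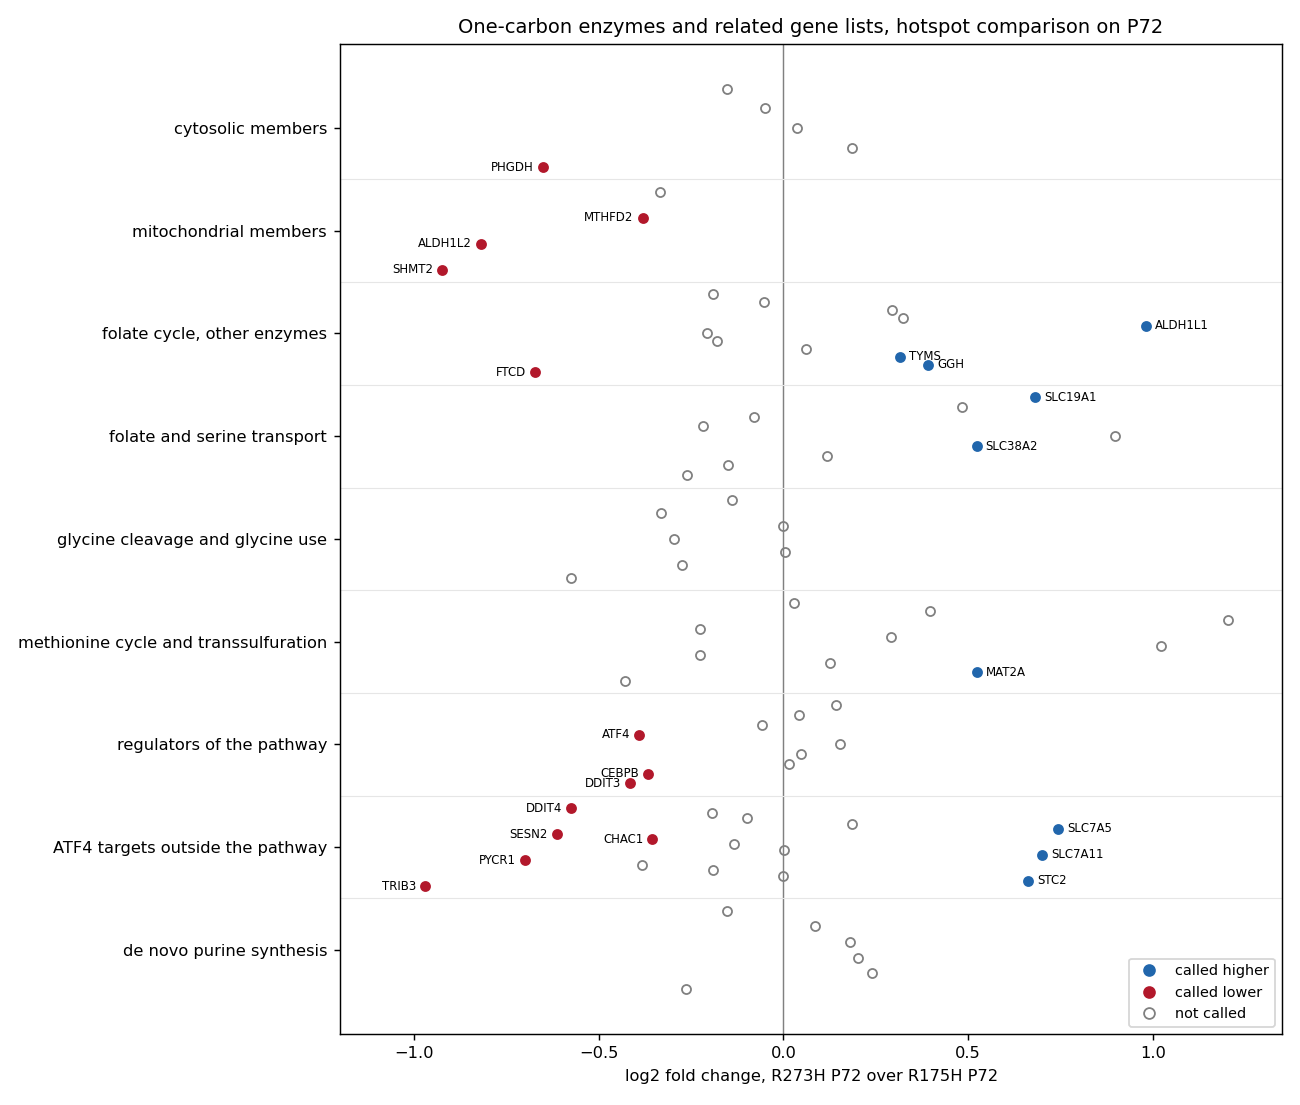
Log2 fold change of each tested gene for R273H P72 over R175H P72, with the 9 enzymes in the top rows (cytosolic and mitochondrial members) and the 7 related lists beneath; vertical offsets within a row carry no value, and called genes are named. The 4 mitochondrial enzymes lie between -0.92 and -0.33, whereas the folate cycle, the carriers and the ATF4 targets have called genes on the right of 0.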

How the data were processed

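Estimated counts per gene for 11 libraries, whole numbers as deposited, were made by the authors with Bowtie2 and RSEM 1.2.12 on hg38, per the submitters' processing notes, from QuantSeq 3′ libraries read as single 75 bp reads, per the labels' protocols. Settings, strand use included, are not given in the sources used here. Columns were matched to libraries by title. Gene models came from GENCODE 29, which holds 42551 of the 45965 IDs, and promoters from RefSeq. Of these genes 20641 had no count.

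Genes were kept by filterByExpr (minimum count 10, minimum total 15), scaled by TMM and fitted over all 11 libraries with edgeR 4.0.16 (R 4.3.3; robust quasi-likelihood, 4 groups and batch). Benjamini-Hochberg adjustment was over 16324 genes, with a threshold of 0.05. The procedure was run on simulated counts with known changes, for R72 on R175H and for the hotspot comparison on P72 only. These counts held no batch effect and no GC trend, so the limits set by batch and GC were not tested. The alternatives tried were no filter, a minimum of 10 CPM in 3 libraries, scaling by RLE or by library totals, DESeq2 1.42.0, limma-voom (limma 3.58.1), no batch term, a replicate block, b2 alone, each library left out, and offsets for the GC content of the last 500 nt (a spline with 5 degrees of freedom). Ratios were also taken with a pseudocount of 1. Duplicates were looked for within groups only: chi-square per degree of freedom was 4.01 to 18.3 over the 12 pairs of replicates, so none of these pairs was a duplicate.

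The genes named were the 9 enzymes, PPARGC1A and ATF4, every related gene called in a comparison, or the one with the smallest p where none was called, and the 3 profiles nearest to the most variable enzyme. Certain genes that the rule covers were left out of the lists and are not reported here. Genes sharing exonic bases with a member were also named. The members and lists were chosen with earlier results of these data known. Pseudogenes of the enzymes were not analysed here.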

Additional observations from a re-analysis of the deposited data

Results flagged for a closer look

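In 34 groups of 4 values screened (the members, the named related genes and the ratios in R273H P72), 5 had a library far from the other 3, by the gap to its nearest neighbour as a share of the whole range; chance gives about 1 such group in 20. PSPH had a share of 0.868, with R273H P72 replicate 3 at 59.3 CPM and the others at 56.1 to 56.5 CPM. In 3 genes the library apart was R273H P72 replicate 1, the only one of its group in batch b2. FTCD had a share of 0.925, at 8.55 CPM in replicate 1 and 10.99 to 11.2 CPM in the others. CEBPB had a share of 0.852, at 235 CPM in replicate 1 and 199 to 205 CPM in the others, and CHAC1 a share of 0.853, at 76.1 CPM in replicate 1 and 87.4 to 89.4 CPM in the others. TRIB3 had a share of 0.845, with replicate 3 at 272 CPM and the others at 205 to 215 CPM.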

How the results depend on the processing

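The calls of SHMT2 in the hotspot comparison on P72 held under all 10 alternatives and all 11 fits with a library left out. There 4 enzymes were called in the model reported, among 1135 genes higher and 1241 lower of 16324. Leaving out each library gave 1 to 5 enzymes. The count was 1 without R273H P72 replicate 1, with 544 genes higher and 709 lower of 16234. It was 5 without R175H P72 replicate 4, with 1059 genes higher and 1195 lower of 16211. For R72 on R175H the count was 0. SHMT2 alone was called with no filter (229 genes higher and 335 lower of 25324) and with the 10 CPM filter (79 and 161 of 9368). It was also the 1 enzyme called by DESeq2 (2.04% of all genes) and by limma-voom (1.18%). On leaving out each library the count was 0 to 1, with 3 to 91 genes higher and 21 to 183 lower. For the difference of the R72 effects the count was 0. It was 1 under no filter (82 genes higher and 114 lower of 25324) and by DESeq2 (0.845% of all genes). The ratio difference of SHMT2 to SHMT1 for R273H over R175H on P72 was -0.38, -0.96 in b2 alone and -0.87 with batch as a term, and that of MTHFD2 to MTHFD1 was -0.55, and -0.34 in b2 alone. The cause of these shifts was not tested.

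Small changes turned sign, none of them called. For R72 on R175H, SHMT1 (0.026) was -0.077 with no batch term, -0.069 in b2 alone and -0.083 to 0.18 on leaving out each library, and MTHFD2 (0.0087) was -0.0015 with no filter, -0.059 with no batch term, -0.0056 in b2 alone, -0.047 with the GC correction and -0.014 to 0.028 on leaving out each library. For R72 on R273H, with no batch term PHGDH was -0.00084 and PSAT1 0.27, and PSPH was 0.0079 in b2 alone and -0.18 to 0.012 on leaving out each library. For R273H over R175H on P72, PSAT1 was -0.17 with no batch term, SHMT1 was 0.11 in b2 alone and -0.41 to 0.11 on leaving out each library, and MTHFD1 was -0.014 in b2 alone and -0.013 to 0.14 likewise. On R72, with no batch term PSAT1 was 0.039 and MTHFD2 0.0056, and SHMT1 was -0.026 to 0.22 on leaving out each library. For the difference of the R72 effects, PSAT1 was 0.21 with no batch term, PSPH was -0.012 with RLE scaling, -0.0036 with no filter and -0.012 by DESeq2, and on leaving out each library PSPH was -0.16 to 0.081, SHMT1 -0.025 to 0.62 and MTHFD1L -0.0028 to 0.25.

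Replicate numbers did not visibly pair the samples: of 9 same-numbered pairs 1 had deviations correlated above 0.1 (range -0.598 to 0.267). Batch was not removed from these deviations, and most same-numbered pairs cross the batches. R273H P72 replicate 1 and R175H R72 replicate 2, both in b2, were correlated at 0.625. The check therefore cannot exclude pairing. With a replicate block 4 enzymes were called in the hotspot comparison on P72, among 842 genes higher and 934 lower, ALDH1L2 was -0.092 for R72 on R273H, and PSPH was -0.092 for the difference of the R72 effects. Leaving out R273H R72 replicate 3 gives no value for the 3 comparisons that need it. With 80 to 186 counts per library ALDH1L2 has the least precise values, and the comparisons that rest on 1 R273H R72 library have the widest errors.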
